A study of Mus musculus with 2 samples.

Results

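Integrins, tetraspanins and focal adhesion genes were examined in macrophages that thioglycollate, an irritant, had drawn into the peritoneal cavity of mice. The group was defined by name: every gene whose symbol is that of an integrin alpha or beta subunit or a numbered tetraspanin, plus Cd9, Cd37, Cd53, Cd63, Cd81, Cd82, Cd151, Icam1, Vcam1, Tln1, Vcl, Pxn, Zyx and Actb. This gave 60 of the 24315 genes named by a single symbol on the array, carried by 63 probesets. For each of the 60 the probeset that represented the gene was marked unique by the deposited annotation. The 60 genes comprised 18 integrin alpha subunits, 8 beta subunits, 27 tetraspanins, 2 immunoglobulin-type ligands of integrins, 4 focal adhesion proteins and the actin gene Actb. A member was described as above the floor when its brighter array reached a signal of 159, the median over all named genes, which held for 41 members and 12158 genes.

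Integrins are alpha-beta heterodimers of the plasma membrane that bind extracellular matrix or proteins on other cells. Talin binding to the beta tail switches them to a high-affinity state, and vinculin, paxillin and zyxin then link the cluster to actin. Tetraspanins are proteins with a set of membrane-spanning helices that hold integrins, proteases and receptors in membrane microdomains. In macrophages the beta 2 integrins serve adhesion to endothelium and uptake of complement-coated particles, and the alpha 4, alpha 5 and alpha v integrins bind vascular adhesion molecules and matrix.

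The study used 2 Affymetrix arrays, 1 of C57BL/6 wild-type macrophages and 1 of C57BL/6 macrophages labelled HDAC11 knockout. HDAC11 is a histone deacetylase. Both samples were kept untreated in culture overnight and the adherent cells gave the RNA, although the short sample descriptions call the cells freshly isolated. No label states the kind of knockout allele, how many mice were used, or their age and sex. With 1 array per genotype no test was possible, the number of arrays limits the precision, and no difference below can be separated from the spread between preparations. Differences are log2 of the knockout-labelled signal minus log2 of the wild-type signal, and signals are the authors' RMA intensities on a linear scale. Signals of different probesets were not compared with each other.

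The targeted gene did not check the label. Hdac11 (probeset 17460879, chromosome 6, 91156665 to 91174692, plus strand) gave 134.5 in wild-type cells and 147.2 in knockout-labelled cells, both below the floor, a difference of 0.13. No label says whether its probes lie in the deleted part, so every direction rests on the label. Of 10 macrophage markers 9 were above the floor, Cd163 being the exception, and their summed signal was 56127 in wild-type cells and 58134 in knockout-labelled cells. Fewer cells of a type and less RNA per cell cannot be told apart in such bulk RNA. Coordinates are those of the deposited annotation, for which no label or header names a genome build.

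Promoter sequences are shown for the members that differed by 1.2-fold or more and have a usable entry in the RefSeq-based table for GRCm38.p6, and for Vcl as a focal adhesion gene with a serum response element. Each runs from 250 bases before to 30 bases after the annotated start, 5′ to 3′ on the gene's strand. Capitals mark matches on either strand to GGAAATTCC (the kappaB site known from human ICAM1), GAGGAAGT (a PU.1 site), TGANTCA (an AP-1 site), the CArG box bound by serum response factor, or the GC box GGGCGG.
Itgb7, chr15:102231906-102232185, minus strand: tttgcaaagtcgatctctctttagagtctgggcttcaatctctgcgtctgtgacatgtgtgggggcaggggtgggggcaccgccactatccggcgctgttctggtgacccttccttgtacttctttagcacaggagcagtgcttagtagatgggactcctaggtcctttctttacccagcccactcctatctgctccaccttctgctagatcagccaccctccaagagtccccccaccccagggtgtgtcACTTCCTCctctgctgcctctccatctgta
Icam1, chr9:21015690-21015969, plus strand: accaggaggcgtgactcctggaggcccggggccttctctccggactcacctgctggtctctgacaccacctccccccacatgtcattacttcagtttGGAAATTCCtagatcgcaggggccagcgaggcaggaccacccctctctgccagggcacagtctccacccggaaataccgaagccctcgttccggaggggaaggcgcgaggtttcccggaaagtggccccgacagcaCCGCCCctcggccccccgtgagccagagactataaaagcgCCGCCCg
Tspan33, chr6:29693964-29694243, plus strand: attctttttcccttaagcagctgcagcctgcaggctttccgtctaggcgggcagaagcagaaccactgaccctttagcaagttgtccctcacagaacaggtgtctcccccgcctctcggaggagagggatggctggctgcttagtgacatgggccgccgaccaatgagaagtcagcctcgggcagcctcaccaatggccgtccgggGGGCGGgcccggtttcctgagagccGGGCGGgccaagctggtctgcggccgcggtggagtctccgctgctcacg
Vcl, chr14:20929148-20929427, plus strand: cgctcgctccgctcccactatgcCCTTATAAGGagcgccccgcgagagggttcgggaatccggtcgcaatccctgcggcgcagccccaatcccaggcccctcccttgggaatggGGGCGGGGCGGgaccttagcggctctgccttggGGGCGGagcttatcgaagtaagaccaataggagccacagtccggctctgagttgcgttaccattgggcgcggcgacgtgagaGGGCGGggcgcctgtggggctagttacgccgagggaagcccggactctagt

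The Icam1 promoter held the kappaB letters 153 bases before the start, together with a pair of GC boxes. Itgb7 held the PU.1 letters at the start itself, Tspan33 a pair of GC boxes, and Vcl the CArG box 227 bases before the start among 4 GC boxes, a pair of which overlap. Itgb3, Itga6, Itga7, Itgal, Itgad, Itgae, Itgb2, Itgb4, Tspan18, Vcam1, Pxn and Actb had no entry under their symbols, so 48 members, 32 of them above the floor, were searched. Of the table's 27025 genes, counted as holding a motif when the 300 bases of any of their promoters did, 0.381% held the kappaB letters, 3.69% the PU.1 letters, 8.97% the AP-1 letters, 1.81% the CArG box and 38.2% the GC box. Among the 32 searched members above the floor, the kappaB letters occurred in Icam1 and Tspan11. The PU.1 letters occurred in Cd37, Cd53, Cd82, Itgav, Itgb7 and Tspan14, and the AP-1 letters in Itga9, Itgax, Tspan4 and Zyx. The CArG box occurred in Vcl alone and the GC box in 21 of the 32. The percentages are over genes of any signal, and none was taken over genes above the floor. The counts among the 32 are therefore not on the same footing. A match is a description of letters in this window and not of binding. The members above the floor with the PU.1 letters ran from -0.55 in Itgb7 and -0.26 in Itgav to 0.04 in Cd37. Between them lay Tspan14 (-0.04), Cd82 (-0.03) and Cd53 (a value that rounds to 0.00). Cd37 alone was higher, and its sign changed with the trend on genomic span removed. A link between these letters and the differences was not tested.

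The group as a whole differed little between the arrays. No member above the floor reached 1.5-fold, where 1.01% of all genes above the floor were lower and 0.543% higher by that size on the knockout-labelled array. At 1.2-fold, 3 members were lower (Itgb7, Icam1 and Itga9) against 6.93% of all genes, and 2 were higher (Itgb3 and Tspan33) against 7.11%. These shares of the 41 members, 7.32% lower and 4.88% higher, were near the background. Of the 41, 26 were lower, 14 higher and 1 equal, with a median of -0.05, while 53.2% of all genes were lower and 46.4% higher, with a median of -0.01. The classes divided unevenly: 18 of the 22 members other than tetraspanins were lower, and 8 of the 19 tetraspanins. The 22 are a pool of the other classes and not itself a class set by role. With each array centred on its median, which moved the median of all genes to 0.02, 45.3% of all genes and 17 of these 22 members were lower. Itgax then stood at 0.01.

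**Figure D1:**
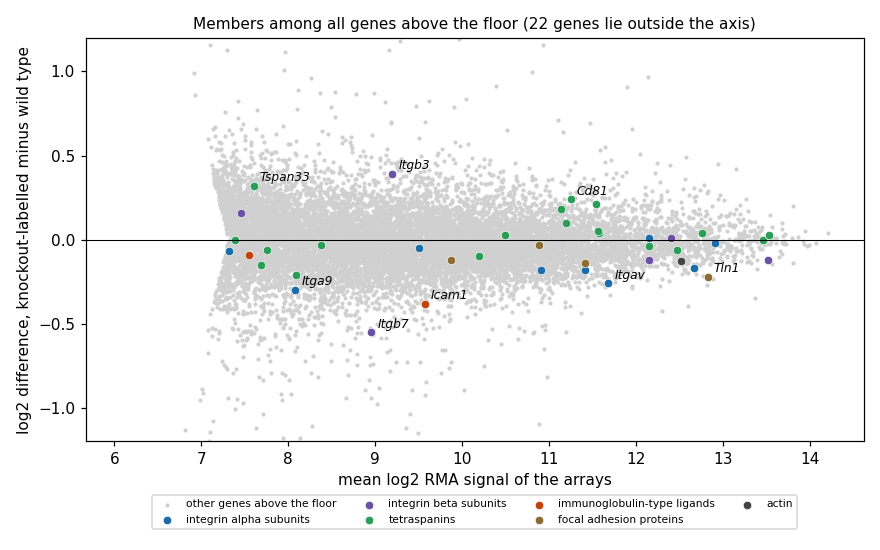
Log2 difference (knockout-labelled minus wild type) against mean log2 RMA signal for the genes above the floor, with members coloured by class and 22 genes beyond the plotted range. The members lie inside the cloud of all genes, with Itgb7 at -0.55 the lowest and Itgb3 at 0.39 the highest member.

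As a yardstick for a single gene, the central 95% range of the differences of the 500 genes nearest in mean signal was taken. It describes the scatter between these arrays and not the spread between mice. Of all genes above the floor 2.71% lay below and 2.79% above their ranges. Of the members, 4 lay below (Itgb7, Icam1, Itgav and Tln1) and none above, and the other 37 lay inside.

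Among the alpha subunits 8 of the 9 above the floor were lower on the knockout-labelled array, with a median of -0.17 and a range from -0.30 to 0.01. That is 88.9%, beside 53.2% of all genes above the floor and 66.3% of those spanning over 34.5 kb. Of the 9, 1 (11.1%) was lower by 1.2-fold, beside 6.93% of all genes. Itgav, which encodes alpha v, the shared subunit of receptors for vitronectin and other matrix proteins, gave 3596 in wild-type cells and 2997 in knockout-labelled cells (probeset 17372515, chromosome 2, 83724397 to 83806916). The knockout-labelled signal was 83.4% of the wild-type signal, a difference of -0.26, just short of 1.2-fold, and below the range of genes of like signal (-0.22 to 0.32). A further Itgav probeset, on the opposite strand, gave 76.8 and 83.7, a difference of 0.12 with both signals below the floor, and the mean of both probesets gave -0.07.

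Itga9, a receptor subunit for tenascin and vascular cell adhesion molecule, had the lowest difference of the class, -0.30, from 301.1 in wild-type cells and 244.3 in knockout-labelled cells. This lay inside the range of like genes, -0.51 to 0.40. The fibronectin receptor subunit Itga5 gave 2899 and 2561 (-0.18). Itga4, which pairs with beta 1 to bind Vcam1 and with beta 7 to bind the mucosal addressin, gave 2035 and 1802 (-0.18). Itga5 stood at 88.3% and Itga4 at 88.5% of wild type, both inside their ranges. Of the laminin receptor subunits, Itga6 gave 4517 and 4542 (0.01). Itga7, also a laminin receptor subunit, gave 163.3 and 155.9 (-0.07), the knockout-labelled signal lying below the floor.

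The leukocyte integrin genes showed small differences. Itgam, the alpha subunit of complement receptor 3, gave 6906 in wild-type cells and 6142 in knockout-labelled cells, a difference of -0.17 within a range of -0.20 to 0.29. The neighbouring Itgax, the alpha subunit known as CD11c, gave 7755 and 7665 (-0.02). Itgal, which forms the Icam1 receptor LFA-1, gave 737.1 and 714.2 (-0.05). Their common partner Itgb2 gave 12261 and 11272 (-0.12, range -0.19 to 0.27). All 4 lay inside their ranges, and Itgad, a further beta 2 partner, was below the floor on both arrays with 44.2 and 51.8. The probesets of Itgam, Itgax and Itgad lie in a row on chromosome 7, 1.39 kb and 3.72 kb apart.

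**Figure D2:**
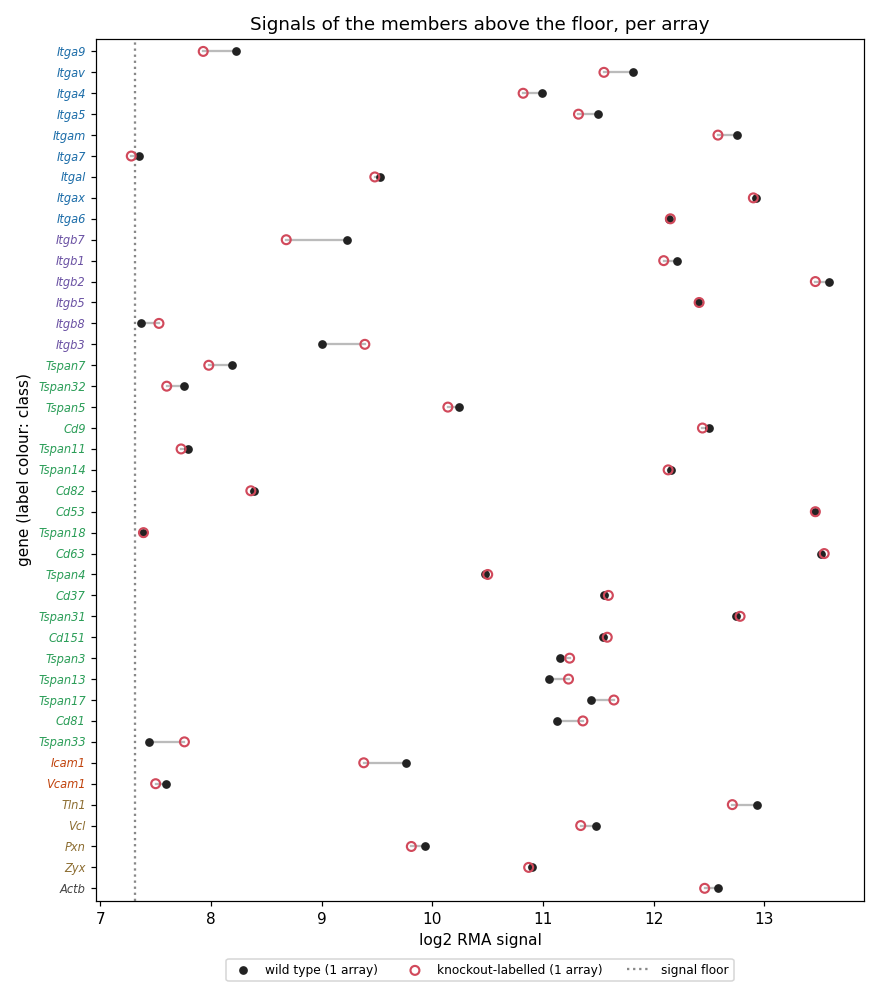
Log2 RMA signal of each of the 41 members above the floor on the wild-type array (filled points) and the knockout-labelled array (open points), 1 array each, with gene labels coloured by class and the signal floor dotted. The widest gaps are in Itgb7, with a log2 difference of -0.55, Itgb3 (0.39) and Icam1 (-0.38).

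The beta subunits held both extremes of the group. Itgb7, which pairs with alpha 4 or alpha E in lymphocytes and some myeloid cells, gave 600.3 in wild-type cells and 409.8 in knockout-labelled cells (probeset 17322163, chromosome 15, 102215995 to 102231935, minus strand). The knockout-labelled signal was thus 68.3% of wild type, a difference of -0.55 or 1.46-fold, below the range of like genes (-0.41 to 0.35). Itgb3, the beta subunit of platelet and osteoclast integrins, gave 510.8 and 669.9 (probeset 17257235, chromosome 11, 104608000 to 104670476, plus strand). Its knockout-labelled signal was the higher, by 0.39 or 1.31-fold, inside the range of -0.42 to 0.45.

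Among the other beta subunits above the floor, Itgb1, the most widely shared partner of alpha subunits, gave 4750 and 4363 (-0.12). The vitronectin receptor subunit Itgb5 gave 5387 and 5437 (0.01). Itgb8, which with alpha v releases active TGF-beta from its latent form, gave 165.6 and 184.9 (0.16), signals close to the floor. These 3 lay inside their ranges. In all, 3 beta subunits were lower and 3 higher, with a median of -0.05. That median changed sign when members below the floor were counted, to 0.04 without a floor.

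Markers of other cell types were measured beside these genes. Of 6 platelet markers 2 were above the floor, their list summing to 1957 in wild-type cells and 2003 in knockout-labelled cells, and Ppbp, Gp9, Gp1bb and Gp1ba were below it. The platelet subunit Itga2b was itself below the floor, with 125.2 and 145.5. Of 6 mast cell markers only Cpa3 was above the floor, and the list summed to 433.6 and 704.6, with Kit, Mcpt4, Tpsb2, Cma1 and Fcer1a below it. B cell markers (4 of 5 above the floor) summed to 1158 and 1063, T cell markers (1 of 5) to 467.5 and 469.1, and NK cell markers (1 of 4) to 301.2 and 313.3. Markers of resident peritoneal macrophages (8 of 10) summed to 4041 and 3333, and mesothelial and fibroblast markers (5 of 8) to 3697 and 3031. Neutrophil markers (2 of 8) summed to 809.2 and 987.9, endothelial markers (1 of 5) to 717.8 and 612.1, and dendritic cell markers (1 of 4) to 488.8 and 480.9. The sums of the resident macrophage, mesothelial and fibroblast, endothelial and B cell lists were thus lower, in the same direction as Itgb7, Itga9 and Icam1. That of the mast cell list was higher, in the same direction as Itgb3, as was that of the neutrophil list, whose 2 genes above the floor had opposite signs: S100a8 gave 203.1 and 375.6 (0.89) and Cxcr2 190.4 and 158.9 (-0.26). Their part in these differences was not tested.

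Integrins reach the surface only as heterodimers, so the subunits were also read in pairs. Of 24 known pairs, 13 had both subunits above the floor. In 9 of these both subunits were lower, in 4 the signs were opposite, and in none were both higher. The pairs are not independent, since Itgb1 enters 5 of the 9 and Itgb2 another 3. The pair of Itga4 and Itgb7, the receptor for the mucosal addressin, had differences of -0.18 and -0.55, the latter the lowest of the beta subunits above the floor. In the alpha v pairs the subunits parted: Itgav at -0.26 stood against 0.39 for Itgb3, 0.16 for Itgb8 and 0.01 for Itgb5, while Itgb1 at -0.12 had its sign. The widest gap within a pair above the floor, -0.65 for alpha minus beta, was that of Itgav and Itgb3. In the 3 beta 2 pairs above the floor alpha and beta differed by at most 0.10.

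**Figure D3:**
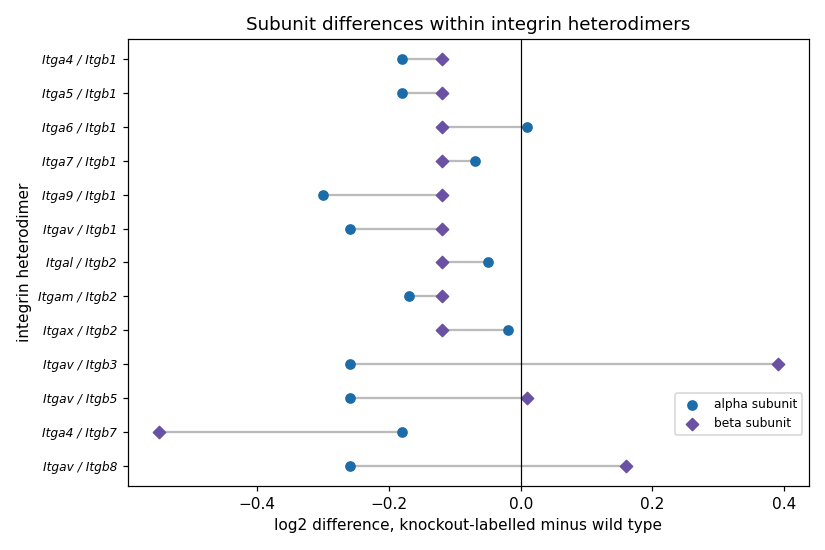
Log2 differences (knockout-labelled minus wild type) of the alpha subunit (circles) and beta subunit (diamonds) in the 13 integrin heterodimers with both subunits above the floor. Circles and diamonds share a side of 0 in 9 pairs, and the Itgav and Itgb3 pair spans from -0.26 to 0.39.

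Of the immunoglobulin-type ligands, Icam1 was lower. It encodes the counter-receptor of beta 2 integrins and gave 868.0 in wild-type cells and 667.2 in knockout-labelled cells (probeset 17515074, chromosome 9, 21015960 to 21028797, plus strand). The knockout-labelled signal was 76.9% of wild type, a difference of -0.38 or 1.30-fold, at the lower edge of the range of like genes (-0.37 to 0.37). The alpha 4 ligand Vcam1 gave 193.3 and 181.5 (-0.09), inside its range.

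All 4 focal adhesion proteins and Actb were lower, with a median of -0.13 for the 4, where 53.2% of all genes were lower. Tln1, the talin that activates integrins, gave 7801 in wild-type cells and 6706 in knockout-labelled cells (probeset 17424674, chromosome 4, 43531513 to 43562691, minus strand). That is 86% of wild type, a difference of -0.22, below the range of -0.20 to 0.28. Vcl, the vinculin that couples talin to actin, gave 2854 and 2584 (-0.14), and the adaptor Pxn gave 976.1 and 895.7 (-0.12). Zyx, a zyxin found at mature adhesions and stress fibres, gave 1914 and 1871 (-0.03) and went to a value that rounds to 0.00 under quantile normalization. The actin gene Actb gave 6141 and 5624 (-0.13), inside its range of -0.20 to 0.29, so it too was lower by about as much as Pxn and Vcl.

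The tetraspanins centred close to 0. Of 27 genes 19 were above the floor, 8 of them lower, 10 higher and 1 equal, with a median of 0.03 and a range from -0.21 to 0.32. All 19 lay inside the ranges of like genes, and 1 (5.26%), Tspan33, was higher by 1.2-fold, beside 7.11% of all genes. The leukocyte tetraspanins differed by little: Cd53 gave 11288 and 11259 (a difference that rounds to 0.00), and Cd37 gave 3005 and 3088 (0.04). The late endosomal and exosomal Cd63 gave 11664 in wild-type cells and 11938 in knockout-labelled cells (0.03). These 3 stood at 99.7%, 103% and 102% of wild type.

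Cd9 and Cd81, related tetraspanins that bind integrins and restrain macrophage fusion, took different signs. Cd9 gave 5782 and 5544 (-0.06), and Cd81 gave 2238 and 2635 (0.24). Cd81 came close to the upper end of its range, -0.25 to 0.28, and its sign held in the 8 alternative settings that give single genes a value, between 0.23 and 0.27. A further Cd9 probeset, on the opposite strand, gave 145.8 and 163.4 (0.16), and the mean of the Cd9 probesets changed sign, to 0.05. Cd151, the partner of laminin-binding integrins, gave 2970 and 3067 (0.05), and Cd82, a suppressor of cell migration, gave 334.4 and 328.3 (-0.03).

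The TspanC8 tetraspanins escort the protease ADAM10 to the cell surface. Tspan33 gave 173.9 in wild-type cells and 216.5 in knockout-labelled cells, a difference of 0.32 inside a range of -0.53 to 0.39. Tspan17 gave 2757 and 3197 (0.21), Tspan14 gave 4579 and 4468 (-0.04), and Tspan5 gave 1208 and 1129 (-0.10). The class was thus divided, 2 higher and 2 lower, and Tspan10 and Tspan15 were below the floor. Adam10 itself, named here for its role and outside the rule for named genes, gave 3281 and 3111 (-0.08).

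Of the remaining tetraspanins above the floor, Tspan13 gave 2122 and 2409 (0.18) and Tspan3 gave 2268 and 2423 (0.10). Tspan31 gave 6831 and 7030 (0.04), and Tspan4, a component of the migrasomes left by moving cells, gave 1424 and 1450 (0.03). Those 4 were higher by small amounts. Tspan7 gave 292.4 and 252.5 (-0.21), Tspan32, a tetraspanin of blood cells, 216.1 and 194.5 (-0.15), and Tspan11 221.5 and 212.3 (-0.06). Those 3 were lower, inside wide ranges. Tspan18 gave exactly equal signals, 168.1 on both arrays, as did 442 of the 33641 main probesets. Cd151 and Tspan4, 3.75 kb apart on chromosome 7, had similar differences, 0.05 and 0.03. Tspan32 and Cd81, 33.1 kb apart on the same chromosome, took opposite signs, -0.15 and 0.24.

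**Figure D4:**
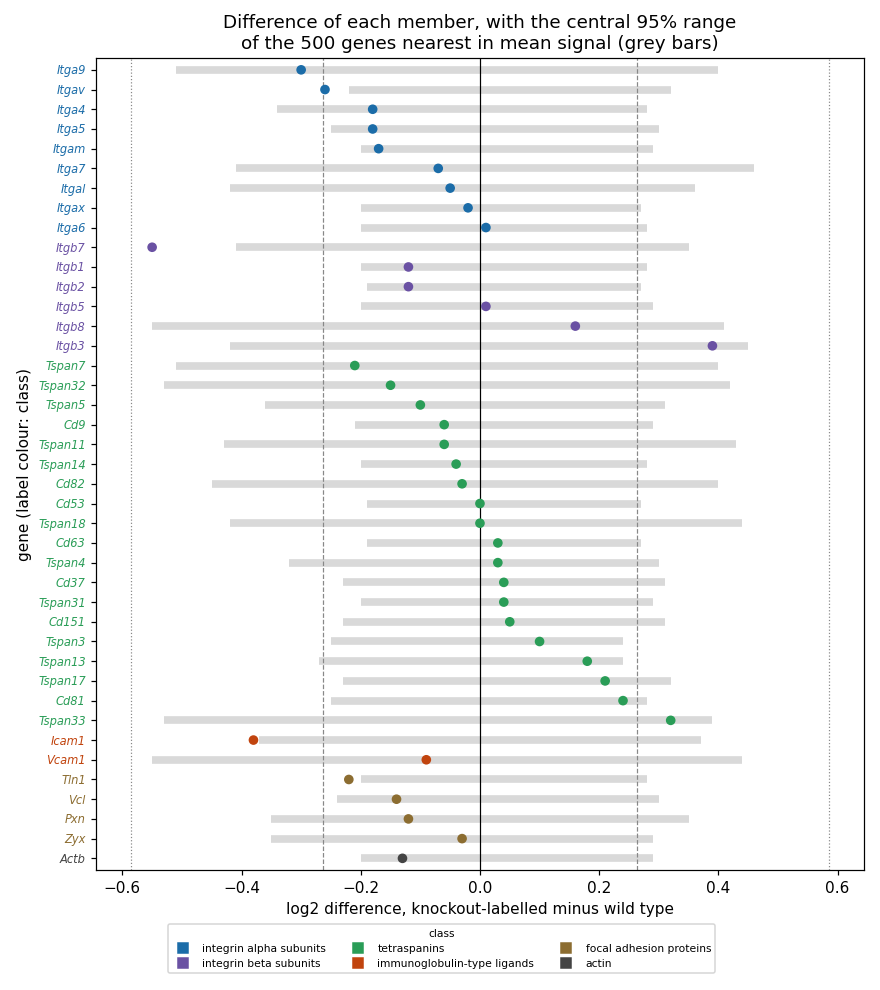
Log2 difference (knockout-labelled minus wild type) of each of the 41 members above the floor, coloured by class, with grey bars for the central 95% range of the 500 genes nearest in mean signal, dashed lines at 1.2-fold and dotted lines at 1.5-fold. Itgb7, Icam1, Itgav and Tln1 lie to the left of their bars and every tetraspanin lies inside its bar.

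The other 19 members stayed below the floor on both arrays, with signals from 21.1 to 154.0 and differences from -0.23 to 0.49. None reached 1.5-fold. They comprised 9 alpha subunits, 5 lower and 4 higher: the collagen receptor subunits Itga1, Itga2, Itga10 and Itga11, with Itga3, and then Itga2b, Itga8, Itgad and Itgae. The 2 beta subunits were the epithelial Itgb4 and Itgb6, both higher by at most 0.14. The 8 tetraspanins were Tspan1, Tspan2, Tspan6, Tspan8, Tspan9, Tspan10, Tspan12 and Tspan15, 7 higher and 1 lower.

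The difference varied with the genomic span of a gene on these arrays. Over all genes above the floor, split by span into classes of equal size, 40.6% of the shortest class (up to 11.1 kb) were lower on the knockout-labelled array, 52.6% of the middle class and 66.3% of the longest class (over 34.5 kb). The medians of these classes were 0.04, -0.01 and -0.06. The alpha subunits above the floor had a median span of 65.5 kb, the beta subunits 54.7 kb and the tetraspanins 25.2 kb, against 20.0 kb for all genes. Among the tetraspanins 0 of 5 were lower in the shortest class, 2 of 7 in the middle class and 6 of 7 in the longest. The other members were lower in 2 of 2, 7 of 7 and 9 of 13. The Spearman rank correlation between span and difference was -0.57 over the 19 tetraspanins, 0.15 over the other 22 members and -0.24 over all 12158 genes, each across genes of the same pair of arrays. With the trend on span removed across all genes, 18 of the 22 members other than tetraspanins were still lower, beside 50.7% of all genes, and the alpha subunit median was -0.12. The difference of Itga9 was then -0.20, which left 2 members above the floor lower by 1.2-fold. The 5331 probesets that serve as intron controls were also lower, by a median of -0.36, and their part in these differences was not tested.

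**Figure D5:**
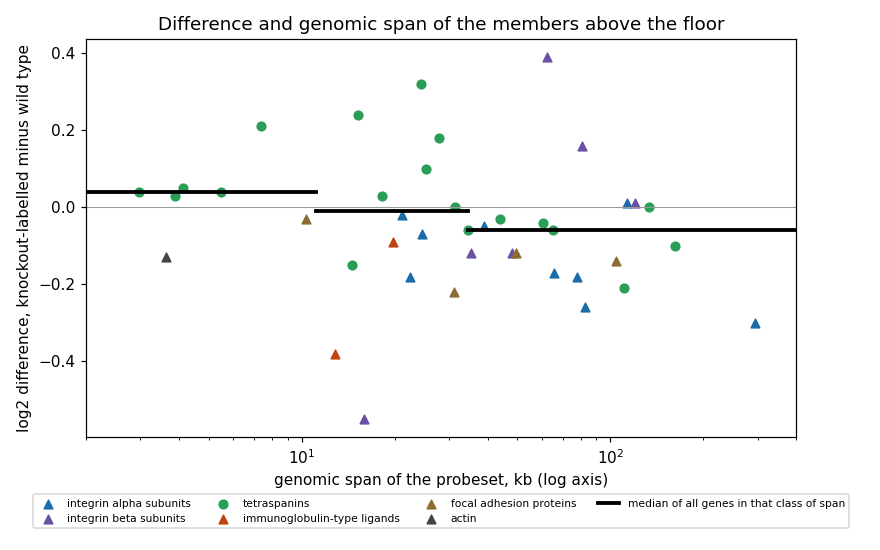
Log2 difference (knockout-labelled minus wild type) of the 41 members above the floor against genomic span of the probeset in kb on a log axis, with tetraspanins as circles, other members as triangles and the median of all genes in each class of span as black lines (0.04, -0.01 and -0.06). Long tetraspanins lie at or below 0, while the other members lie mostly below 0 at every span.

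Other genes of the pathway were described from lists that hold no member. Of 42 measured genes of integrin activation and adhesion signalling, 37 were above the floor, 26 lower and 11 higher, with a median of -0.06. None was higher by 1.2-fold, beside 7.11% of all genes. By that size 2 were lower, which is 5.41% of the 37 beside 6.93% of all genes. These were the guanine nucleotide exchange factors Vav3, with 1772 and 1241 (-0.51), and Arhgef7, with 882.1 and 716.8 (-0.30). Of 28 actin cytoskeleton genes, all above the floor, 21 were lower and 6 higher, with a median of -0.08. The smooth muscle actin Acta2, with 528.8 and 705.9 (0.42), was the 1 gene of that list higher by 1.2-fold, and the non-muscle myosin Myh9 gave 3763 and 3163 (-0.25). By 1.2-fold 3.57% of the list was thus higher and none lower, beside 7.11% and 6.93% of all genes. Most genes of both lists were lower, 70.3% and 75%, beside 53.2% of all genes, as most members other than tetraspanins were. Among all genes above a floor at the 75th percentile of signal 57.6% were lower, and 66.3% of the longest class of span. Neither list was adjusted for signal or span.

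Integrin ligands and counter-receptors were more dispersed. Of 29 genes 20 were above the floor, with a median of -0.12. By 1.2-fold, 6 were lower (Thbs1, Nid1, Fn1, Icam2, Col1a2 and Col1a1) and 3 higher (Mfge8, Cyr61 and F11r), which are 30% and 15% of the list against 6.93% and 7.11% of all genes. The matricellular thrombospondin Thbs1 gave 2196 in wild-type cells and 1502 in knockout-labelled cells (-0.55), and the basement membrane protein Nid1 gave 322.6 and 239.6 (-0.43). Col1a1 and Col1a2 are also in the fibroblast marker list, and Icam2 in the resident macrophage list, both of which summed lower. Of the tetraspanin partners and tetraspanins with other names, 13 of 17 were above the floor, 8 lower and 5 higher. By 1.2-fold 4 were lower and 1 higher, which are 30.8% and 7.69% of the 13 beside 6.93% and 7.11% of all genes. Hbegf, a growth factor that associates with Cd9, gave 657.4 and 437.4 (-0.59). It was the 1 gene of the list lower by 1.5-fold, beside 1.01% of all genes. The hyaluronan receptor Cd44 (-0.54) and Ptgfrn (-0.27) were among the 4 lower by 1.2-fold. The gene higher by that size was the membrane metalloprotease Mmp14 (0.35).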

How the data were processed

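RMA intensities of 41345 probesets on a linear scale were deposited by the authors, per the file headers; the submitters' processing notes name RMA and Affymetrix Expression Console 1.2.1. The authors also deposited a value table in log2, within 5e-05 of log2 of those intensities. The deposited fold column, a signed ratio, was recomputed from the signals and not used further. Since RMA makes the distributions of both arrays alike, a shift common to most genes would not be seen. No header or label names the array library files or a genome build.

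Of 33641 main probesets 26563 had 1 symbol. Each gene was represented by its brightest probeset on average (1562 genes had several, 3 of them members). With 1 array per genotype nothing could be tested between genotypes. Genes were named by rule: every member, and of each pathway list those at 1.5-fold or else the 2 furthest from 0. Other genes named from these lists at 1.2-fold, such as Fn1, Icam2, Cd44, Ptgfrn and Mmp14, those named from the focal adhesion term, and the members below the floor with values, were chosen after their values were seen. The members and lists were chosen with earlier results of these data known. Promoters came from the RefSeq-based table for GRCm38.p6, matched by symbol. Itga9 was searched but not printed, since its listed start lies inside the gene. A member of a pathway list is not reported here. The steps were tested on simulated data. The alternatives covered the source of values, scaling, probeset summary, probe uniqueness, floor, an offset of 16 and the trend on genomic span (lowess over a fraction of 0.3). Software: Python 3.11.15 with matplotlib 3.10.9, numpy 2.4.6, statsmodels 0.14.6, scipy 1.17.1 and pandas 2.3.3.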

Additional observations from a re-analysis of the deposited data

How the results depend on the processing

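No paired analysis was possible because each genotype had 1 array. A count was taken to hold when it stayed within 1.5 times its value, a class median within 0.1 and a gene within 1 SD of the 500 genes nearest in mean signal. Of the values for counts and class medians under the alternatives, 126 held, 4 moved and 3 changed sign, and of those for single genes 327 held and 1 moved (Itgav, -0.07 with the mean of both probesets). Part of these values could not move, so the tally overstates how far they were tried. The deposited log2 values lay within 5e-05 of the main ones, and the probeset of every member was already unique. For single genes, averaging probesets could change only members with several. The beta subunit median turned to 0.04 without a floor, 0.01 with the floor at the 25th percentile and a value rounding to 0.00 with the span trend removed. With the floor at the 75th percentile 1 member was lower and 1 higher by 1.2-fold, and the ligand median was -0.38, since Vcam1 dropped out. Without a floor 4 members were higher by 1.2-fold. Centring each array on its median put 36.9% of the 1.2-fold differences of all genes on the lower side, against 49.4%. Of 41 members above the floor 30 kept their sign in the 8 alternatives that give single genes a value. A further 1 (Tspan18) was equal on both arrays. Under a scaling 4 changed sign (Cd53, Cd82, Itgax and Zyx). Another alternative alone changed the sign of 6 (Cd151, Cd37, Cd63, Cd9, Tspan14 and Tspan31). None of the members that changed sign had a difference over 0.06 in size. Without Actb and the focal adhesion proteins, a choice made after seeing the data, 21 of the members were lower. Probe-level steps and background correction were not varied.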

Other observations

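The deposited annotation offers a wider set of adhesion genes, looked at after the values above were known. Apart from members, 86 genes carried its focal adhesion term and 67 were above the floor, of which 47 were lower (70.1%, beside 53.2% of all genes) and 20 higher, with a median of -0.06. This set was not adjusted for signal or span. By 1.2-fold 7 were lower (10.4%, beside 6.93% of all genes) and 3 higher (4.48%, beside 7.11%). The lower genes included the kinase Pak1 with 1566 in wild-type cells and 1224 in knockout-labelled cells (-0.36) and the zyxin relative Lpp with 1183 and 960.5 (-0.30). By 1.5-fold 2 were higher, beside 0.543% of all genes. These were Lims2, an adaptor of integrin-linked kinase, with 288.1 and 478.2 (0.73), and Ephx2, an epoxide hydrolase, with 109.9 and 166.3 (0.60), whose wild-type signal lay below the floor. Tspan6 had the largest difference of the members below the floor, 0.49, from 103.6 and 145.1. The opposite-strand probeset of Itgb4 gave 90.8 and 119.7 (0.40), against 133.3 and 146.8 (0.14) on the strand of the gene, all below the floor.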
